A study of Arabidopsis thaliana with 6 samples.

Results

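The 45 genes described here were listed by the authors as higher in the mrg1 mrg2 mutant of Arabidopsis thaliana, and among the wild-type libraries they were raised in Col-0 replicate 1. They were chosen by measured values. A row of the authors' table of higher genes was taken when the mean of its 3 Col-0 raw counts was 50 or more and its Col-0 replicate 1 count was at least 1.5 times the larger of the 2 other Col-0 counts. The rule took 45 of the 364 higher genes with such a mean count (12.4%), out of 531 higher genes and 552 listed genes in all. Because the rule read the Col-0 counts and the genotype call, the gap between Col-0 libraries and the gap between genotypes are given as descriptions, with no test of either.

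RNA was taken from the aerial parts (leaves and stem, by the labels) of 12-day-old seedlings of 2 genotypes with 3 libraries each. The genotypes were mrg1 mrg2, a mutant labelled for both MRG1 and MRG2 in the Columbia-0 ecotype, and Col-0, the wild type of that ecotype. The sources used here name neither the alleles nor the number of plants pooled per library. Both genotypes grew on soil at 22 °C in long days (16 h light, 8 h dark) with no stress treatment and were sampled 8 h after lights came on. The series describes 3 independent experiments, and mutant and Col-0 libraries with the same replicate number are treated below as coming from the same experiment.

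Values are raw counts of 50 bp single-end reads per gene, or normalized counts, which are raw counts divided by a size factor for each library (0.954 to 1.07). Counts were available for the 552 listed genes only, so library totals are unknown, and a gene that was not listed has no value here. MRG2 had raw counts of 188, 111 and 96 in mrg1 mrg2 replicates 1, 2 and 3, against 437, 380 and 403 in Col-0 replicates 1, 2 and 3, so that every mutant library was below every Col-0 library. MRG1 was not listed, so that side of the label was not checked. None of 20 light and photosynthesis genes, 16 root and seed markers and 8 flower markers was listed. The tissue label could therefore not be checked either. In RNA from whole aerial parts, fewer cells of a type and less RNA per cell cannot be told apart.

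MRG1 and MRG2 are chromodomain proteins that bind histone H3 methylated on lysine 36 and work with histone acetyltransferases on active genes. Plants keep a set of genes for transcription factors, ubiquitin ligases and defence regulators at low levels in calm leaves and raise them quickly after touch, cold, drought, pathogen signals or a shortage of sugar. WRKY factors bind the W-box in such promoters, NAC factors act in drought and leaf ageing, and many C2H2 zinc finger proteins of this kind are repressors.

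In the wild type, the 45 genes together gave 66277 normalized counts in Col-0 replicate 1, against 33911 in replicate 2 and 33741 in replicate 3. Their summed level in Col-0 replicate 1 was thus 1.95 times that in replicate 2 and 1.96 times that in replicate 3. Over the 319 other higher genes with a mean Col-0 count of 50 or more, the same ratios were 1.07 and 1.17. The ratio that the rule used, Col-0 replicate 1 over the larger of the other counts, ran from 1.504 to 3.10 with a median of 1.77. Just inside the threshold stood AT5G08350 at 1.504, CRK23 at 1.51 and AT1G25400 at 1.52, and just outside it stood 3MMP at 1.48, FUT4 at 1.47 and AT5G66650 at 1.47. With the same rule, 3 higher genes were raised in Col-0 replicate 2 and 5 in Col-0 replicate 3. The lowest Col-0 library was replicate 3 in 28 of the 45 genes (62.2%) and replicate 2 in 17 (37.8%), since the rule bars replicate 1. In the other 319 genes it was replicate 3 in 43.9%, replicate 2 in 26.3% and replicate 1 in 29.8%. None of the 19 lower genes with a mean Col-0 count of 50 or more was raised in Col-0 replicate 1.

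**Figure D1:**
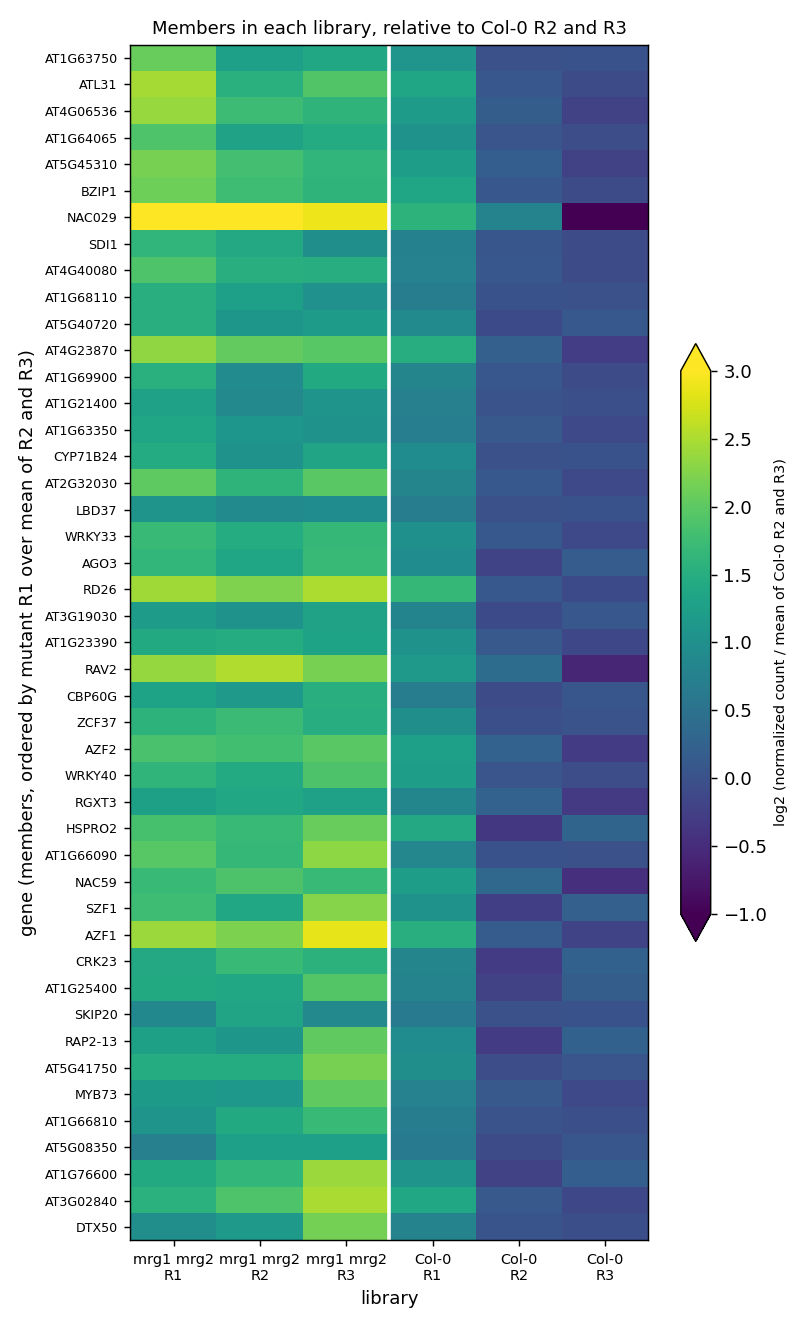
Normalized counts of the 45 genes (rows) in the 3 mrg1 mrg2 and 3 Col-0 libraries (columns), as log2 of the ratio to the mean of Col-0 replicates 2 and 3; colours stop at -1 and 3. Col-0 replicate 1 lies above Col-0 replicates 2 and 3 in all 45 rows, which the rule required, and the mutant libraries lie above Col-0 replicate 1; rows are ordered by how far mutant replicate 1 stood above mutant replicates 2 and 3.

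Every mutant library lay above every Col-0 library in normalized counts for each of the 45 genes. The same held for 99.7% of the other 319 and 99.8% of all higher genes. Normalized counts summed over the genes were 95394, 91214 and 104548 in mrg1 mrg2 replicates 1, 2 and 3, all above the 66277 of Col-0 replicate 1. Raw counts of the genotypes did not overlap in 44 of the 45 genes, beside 98.9% of all higher genes with a mean Col-0 count of 50 or more. The exception in raw counts was AT5G08350, a GRAM domain gene, with 194, 313 and 284 reads in mrg1 mrg2 and 194, 112 and 129 reads in Col-0. The lowest mutant library was 1.07 to 2.48 times Col-0 replicate 1, with a median of 1.28, compared with a median of 1.54 in the other 319 genes. Since the genes were listed for this difference, the counts are read no further.

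Set against Col-0 of the same experiment, the mutant excess was smallest in experiment 1 for all 45 genes. The median log2 ratio of mrg1 mrg2 to Col-0 was 0.64 in experiment 1, 1.43 in experiment 2 and 1.76 in experiment 3. In the other 319 genes the medians were 0.76, 0.89 and 0.93. The ratio was largest in experiment 3 for 37 of the 45 genes and in experiment 2 for 8. This split was not counted in the other 319, so it is not read as particular to the 45 genes. The rule put Col-0 replicate 1 high against Col-0 replicates 2 and 3. It therefore lowers the ratio in experiment 1 and raises the ratios in experiments 2 and 3, and these gaps are not read as results. The rule treats experiments 2 and 3 alike in raw counts, so their order does not follow from it. With raw in place of normalized counts, the medians over the 45 genes were 1.57 in experiment 2 and 1.70 in experiment 3. The size of this gap thus depends on the scaling. Over the other 319 the median was also higher in experiment 3 than in experiment 2, and the order was not tested. In the authors' deposited table the median log2 fold change was 1.204 for the 45 genes, 0.84 for the other 319 and 1.08 for all higher genes. Listing by p-value asks a larger fold of genes whose Col-0 libraries differ widely, as these do by the rule. The gap is therefore not read as a stronger response.

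The rule did not use how the mutant libraries compare with each other, although the authors' listing used their counts through the genotype difference. The median log2 ratio of mutant replicate 1 to the mean of mutant replicates 2 and 3 was 0.03 over the 45 genes, -0.08 over the other 319 and -0.04 over all higher genes. The same quantity in Col-0 was 0.95 over the 45 genes and 0.08 over the other 319. Mutant replicate 1 was above the mean of the others in 24 of the 45 genes (53.3%) and in 40.1% of the other 319. Over the 13 genes with a Col-0 ratio of 2 or more the mutant median was 0.33, an alternative chosen after seeing the data. In normalized counts mutant replicate 1 was the lowest mutant library in 8 of the 45 genes (17.8%), against 42.9% of the other 319 and 39.8% of all higher genes with the same mean count. Mutant replicate 2 was the lowest in 24 (53.3%), against 19.4% of the other 319, and mutant replicate 3 in 13 (28.9%), against 37.6%. These shares were not tested. With raw in place of normalized counts the median over the 45 genes was -0.08, so its sign depends on the scaling.

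**Figure D2:**
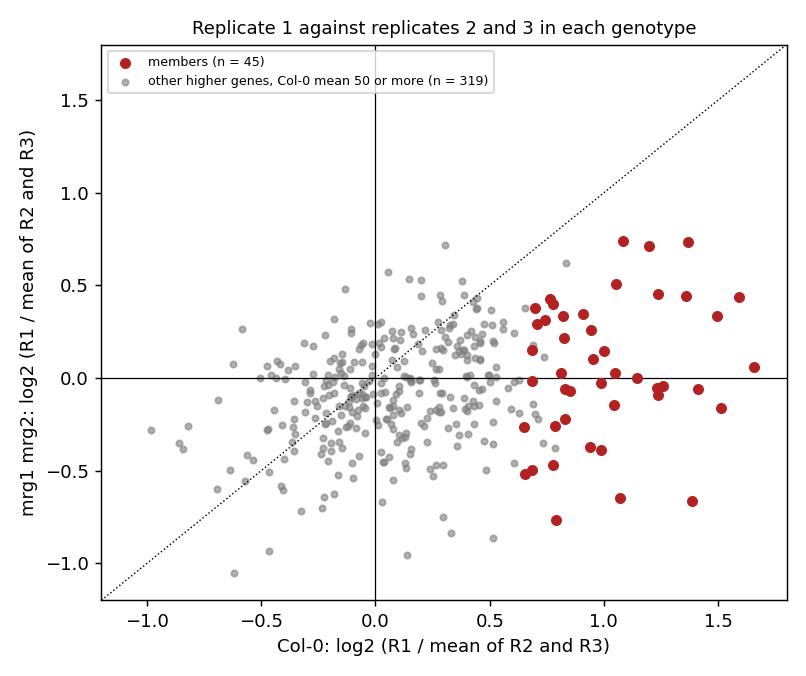
For each higher gene with a mean Col-0 count of 50 or more, the log2 ratio of replicate 1 to the mean of replicates 2 and 3 in mrg1 mrg2 (vertical axis) and in Col-0 (horizontal axis); red points are the 45 genes, grey points the other 319, and the dotted line marks equal gaps in both genotypes. The red points all lie to the right, as the rule requires, and scatter around 0 on the vertical axis, with 24 above it and 21 below.

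Tested across all listed genes with edgeR's quasi-likelihood test, 0 of the 45 genes were higher in mutant replicate 1 than in mutant replicates 2 and 3 at a Benjamini-Hochberg adjusted p of 0.05 (background 0%), and 0 were lower (background 0.275%). The lowest adjusted p among them was 0.155. Over the 45 genes the log2 ratio of mutant replicate 1 to the mean of mutant replicates 2 and 3 ran from -0.77 to 0.74. Over the other higher genes with a mean Col-0 count of 50 or more, this ratio ran from -1.05 to 0.72. The edgeR test set 1 library against 2, so it compares these libraries and not conditions. With 1 library in one arm, a count of 0 says little about whether replicate 1 differed.

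The 45 genes split by which mutant library was highest. Replicate 1 was highest in 19 genes (42.2%), against 27.3% of the other 319 and 29.1% of all higher genes with the same mean count. Replicate 3 was highest in 18, against a background of 32.1%, and replicate 2 in 8, against 38.7%. Mutant replicate 1 exceeded both other mutant libraries by 1.5 times in AT1G63750 and AT4G06536, and in 0 of the other 319 genes. Mutant replicate 3 did so in 6 genes (13.3%), DTX50, MYB73, RAP2-13, AT1G76600, AT5G41750 and AT3G02840, and in 8 of the other 319 (2.51%). Of the zinc finger genes, SZF1, AZF1, AZF2 and AT1G66810 were highest in mutant replicate 3 and AT5G40720 in mutant replicate 1. Of the WRKY genes, WRKY40 was highest in mutant replicate 3 and WRKY33 in mutant replicate 1. Mutant libraries also differed less than Col-0 libraries: the highest over the lowest normalized count had a median of 1.38 in mrg1 mrg2 and 2.16 in Col-0, the Col-0 value being raised by the rule. In the other 319 genes these medians were 1.248 in mrg1 mrg2 and 1.35 in Col-0.

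Zinc finger and WRKY genes of the rapid stress response formed the first group. SZF1 (AT3G55980, chromosome 3, 20776220 to 20778952 in TAIR10.1, 2 exons), a salt-inducible C3H zinc finger gene, had raw counts of 6214, 5451 and 9116 in mrg1 mrg2, against 4041, 1558 and 2285 in Col-0 replicates 1, 2 and 3. It averaged 6978 ± 2174 normalized counts in mrg1 mrg2 and 2611 ± 1224 in Col-0 (SD, n = 3 each). Col-0 replicate 1 lay nearer to mutant replicate 2 than to either other wild-type library. WRKY33 (AT2G38470, chromosome 2, 16108235 to 16110766, 5 exons), a regulator of defence against fungi, had 4851, 4621 and 4782 reads in mrg1 mrg2 and 3155, 1615 and 1457 in Col-0. WRKY40 (AT1G80840), a repressor in immune and abscisic acid responses, had 1262, 1254 and 1540 reads in mrg1 mrg2 and 1028, 434 and 419 in Col-0. In normalized counts the mutant libraries differed by 1.18-fold from lowest to highest for WRKY33 and by 1.35-fold for WRKY40. For both WRKY genes Col-0 replicate 1 stood well apart from the other wild-type libraries.

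The C2H2 zinc finger genes AZF1 and AZF2 encode transcriptional repressors of abiotic stress responses. AZF2 (AT3G19580) had 646, 700 and 725 reads in mrg1 mrg2 and 459, 217 and 155 in Col-0. AZF1 (AT5G67450) had 186, 183 and 259 reads in mrg1 mrg2 and 107, 40 and 33 in Col-0, the second largest Col-0 ratio of the 45 genes at 2.68. AT1G66810, a further C3H zinc finger gene, had 98, 142 and 154 reads in mrg1 mrg2 and 80, 48 and 49 in Col-0. In that gene mutant replicate 1 was the lowest mutant library while Col-0 replicate 1 was the highest wild-type one. AT1G76600, annotated in TAIR10.1 as a poly polymerase, had 1047, 1376 and 2103 reads in mrg1 mrg2 and 870, 339 and 473 in Col-0, again with mutant replicate 1 lowest.

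The promoters of SZF1, WRKY33 and AT1G76600 are shown because they hold 2 or more W-boxes each. They are the 250 bases before the annotated gene start, read from the TAIR10.1 genome 5′ to 3′ on the strand of the gene, with each W-box (TTGACC or TTGACT, either strand) in capitals. They were picked after the matches had been seen. SZF1 is at chr3:20775970-20776219 on the plus strand, WRKY33 at chr2:16107985-16108234 on the plus strand and AT1G76600 at chr1:28746583-28746832 on the plus strand.
SZF1: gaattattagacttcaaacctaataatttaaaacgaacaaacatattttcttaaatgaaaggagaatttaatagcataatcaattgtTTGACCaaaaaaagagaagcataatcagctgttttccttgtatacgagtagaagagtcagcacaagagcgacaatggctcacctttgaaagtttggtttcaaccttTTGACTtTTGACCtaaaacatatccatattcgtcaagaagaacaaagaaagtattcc
WRKY33: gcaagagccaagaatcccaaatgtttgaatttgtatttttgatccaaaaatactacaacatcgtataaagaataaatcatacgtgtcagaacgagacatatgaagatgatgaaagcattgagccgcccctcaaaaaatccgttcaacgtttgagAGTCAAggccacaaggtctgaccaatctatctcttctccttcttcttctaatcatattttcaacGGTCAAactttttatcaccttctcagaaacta
AT1G76600: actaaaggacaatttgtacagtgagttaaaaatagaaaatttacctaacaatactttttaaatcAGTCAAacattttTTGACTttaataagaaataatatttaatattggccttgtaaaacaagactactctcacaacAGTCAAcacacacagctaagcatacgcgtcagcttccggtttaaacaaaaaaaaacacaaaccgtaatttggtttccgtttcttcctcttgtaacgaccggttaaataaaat
SZF1 and AT1G76600 have 3 W-boxes in this window and WRKY33 has 2, and in SZF1 a pair of them stands nearly side by side. No other annotated gene overlaps these windows.

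NAC genes held both the largest Col-0 ratio and the largest genotype fold of the 45 genes. RD26 (AT4G27410, chromosome 4, 13707192 to 13709170, 3 exons), a dehydration and abscisic acid response gene, had 3538, 3460 and 3801 reads in mrg1 mrg2, against 2207, 713 and 648 in Col-0. Its mutant libraries differed by 1.21-fold from lowest to highest, while its Col-0 ratio of 3.10 was the largest of the 45 genes. NAC029 (AT1G69490, also called NAP, chromosome 1, 26122080 to 26123514, 3 exons), an activator of leaf senescence, had 471, 495 and 262 reads in mrg1 mrg2 and 110, 60 and 10 in Col-0. It averaged 408 ± 122 normalized counts in mrg1 mrg2 and 60.0 ± 49.2 in Col-0 (SD, n = 3 each), and its log2 fold change of 2.76 in the authors' deposited table was the largest of the 45. Col-0 replicate 3 was far below the rest, with 10 reads. NAC59 (AT3G29035, also called ORS1), another regulator of leaf ageing, had 407, 519 and 415 reads in mrg1 mrg2 and 314, 161 and 97 in Col-0.

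RAV2 (AT1G68840, also called TEM2, chromosome 1, 25880155 to 25882222, 1 exon), a repressor of the florigen gene FT, was the gene on the list of flowering time genes that was among the 45. It had 3788, 4764 and 3414 reads in mrg1 mrg2 and 1736, 992 and 526 in Col-0. Its lowest mutant library was 2.05 times Col-0 replicate 1. RAP2-13 (AT1G22190), the other AP2 domain factor, had 1523, 1547 and 2629 reads in mrg1 mrg2 and 1292, 525 and 797 in Col-0. Its lowest mutant library was 1.13 times Col-0 replicate 1, so mutant and wild type came closer than in RAV2. MYB73 (AT4G37260), an R2R3 MYB factor related to MYB44, had 4979, 5426 and 9150 reads in mrg1 mrg2 and 4015, 2414 and 2151 in Col-0. MYB73 ends 4777 bp from the MRG1 gene, and whether this position bears on its level was not tested.

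The promoter of RD26 is shown for its abscisic acid response element (ABRE, ACGTGNC on either strand), in capitals, over the 250 bases before the gene start at chr4:13709171-13709420 on the minus strand (TAIR10.1).
RD26: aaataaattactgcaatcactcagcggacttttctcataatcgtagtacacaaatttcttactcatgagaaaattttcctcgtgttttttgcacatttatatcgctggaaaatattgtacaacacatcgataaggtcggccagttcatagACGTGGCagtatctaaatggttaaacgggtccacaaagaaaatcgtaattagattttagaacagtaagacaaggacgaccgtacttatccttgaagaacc
It was picked after the matches had been seen, and holds 1 such element and no W-box; the WRKY33 promoter above holds a match to the ABRE as well as its W-boxes.

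Immune regulators formed another group. CBP60G (AT5G26920), a calmodulin-binding activator of salicylic acid synthesis, had 1987, 1977 and 2309 reads in mrg1 mrg2 and 1356, 761 and 887 in Col-0. HSPRO2 (AT2G40000, chromosome 2, 16700490 to 16702336, 1 exon), named after a sugar beet nematode resistance gene and needed for basal resistance, had 8517, 8701 and 10272 reads in mrg1 mrg2 and 6797, 1898 and 3116 in Col-0. HSPRO2 averaged 9186 ± 1237 normalized counts in mrg1 mrg2 and 3904 ± 2471 in Col-0 (SD, n = 3 each), so the spread in Col-0 was about as wide as its values in replicates 2 and 3. AT3G02840, an ARM repeat gene, had 149, 212 and 290 reads in mrg1 mrg2 and 141, 56 and 49 in Col-0. Its count in Col-0 replicate 1 nearly reached that of mutant replicate 1, and mutant replicate 1 was the lowest of the mutant libraries.

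Disease resistance genes of the NB-LRR and TIR-NBS types, whose proteins sense pathogen effectors, were 4 of the 45; this family was added after the genes had been seen. AT1G66090 (TIR-NBS) had 1095, 1003 and 1435 reads in mrg1 mrg2 and 541, 287 and 298 in Col-0, and its log2 fold change of 1.66 in the authors' deposited table was among the 5 largest of the 45. AT1G63750 (TIR-NBS-LRR) had 1429, 916 and 920 reads in mrg1 mrg2 and 769, 344 and 364 in Col-0, so that replicate 1 was the highest library in both genotypes. AT5G41750 (TIR-NBS-LRR) had 1900, 2136 and 3146 reads in mrg1 mrg2 and 1444, 664 and 757 in Col-0, with mutant replicate 3 highest instead. AT1G63350 (CC-NBS-LRR) had 583, 547 and 478 reads in mrg1 mrg2 and 392, 247 and 221 in Col-0. CRK23 (AT4G23310), a cysteine-rich receptor-like kinase gene, had 108, 148 and 123 reads in mrg1 mrg2 and 77, 34 and 51 in Col-0. These gene families have close copies, and how reads of 50 bp were shared among the copies is uncertain.

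BZIP1, ATL31, AT1G21400, SDI1 and LBD37 are placed together for their known links to carbon, nitrogen or sulfur supply. They were put together after the genes had been seen, and of 17 genes on a list for sugar starvation 0 were listed. BZIP1 (AT5G49450, chromosome 5, 20051829 to 20052735, 1 exon), a bZIP factor of the low-energy response, had 1214, 1056 and 864 reads in mrg1 mrg2 and 762, 299 and 280 in Col-0. ATL31 (AT5G27420), a RING ubiquitin ligase that sets the response to the balance of carbon and nitrogen, had 1948, 1147 and 1354 reads in mrg1 mrg2 and 969, 378 and 354 in Col-0. In both genes replicate 1 was the highest library within each genotype. AT1G21400, which encodes a subunit of branched-chain keto acid dehydrogenase, an enzyme used when sugar is short, had 970, 823 and 847 reads in mrg1 mrg2 and 706, 408 and 415 in Col-0. SDI1 (AT5G48850), a sulfur deficiency gene that restrains glucosinolate synthesis, had 907, 871 and 590 reads in mrg1 mrg2 and 528, 312 and 294 in Col-0. LBD37 (AT5G67420), a repressor of nitrate response and anthocyanin genes, had 5592, 5593 and 5230 reads in mrg1 mrg2 and 4557, 2683 and 2855 in Col-0. LBD37 had the smallest log2 fold change of the 45 genes in the authors' deposited table, 0.71, and its 3 mutant libraries lay within 1.13-fold of each other. LBD37 and AZF1 are 12240 bp apart on chromosome 5.

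The promoter of ATL31 is shown, with its ABRE in capitals, for comparison with that of RD26 and was picked in the same way; it is at chr5:9683738-9683987 on the plus strand (TAIR10.1).
ATL31: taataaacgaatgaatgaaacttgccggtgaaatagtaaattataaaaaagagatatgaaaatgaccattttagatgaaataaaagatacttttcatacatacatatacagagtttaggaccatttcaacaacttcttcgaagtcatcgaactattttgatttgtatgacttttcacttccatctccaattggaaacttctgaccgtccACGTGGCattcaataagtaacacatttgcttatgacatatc
RD26 and ATL31 share the form ACGTGGC of the element with SDI1 and, on the other strand, AGO3. RD26 and ATL31 had the largest and the third largest Col-0 ratio, while SDI1 and AGO3 had ratios of 1.69 and 1.73, below the median of 1.77, and AZF1, with the second largest ratio, had no ABRE in the 250 bases.

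Both kelch repeat F-box genes of the group were abundant. AT1G23390, whose protein targets chalcone synthase for degradation, had 16145, 18743 and 15395 reads in mrg1 mrg2 and 13227, 6636 and 5832 in Col-0. SKIP20 (AT3G59940), whose protein targets cytokinin response regulators and phenylalanine ammonia-lyase, had 8808, 13732 and 9126 reads in mrg1 mrg2 and 8090, 4869 and 5178 in Col-0. For SKIP20 the lowest mutant library, replicate 1, was 1.16 times Col-0 replicate 1. Per kb of annotated exon, the mean normalized count was highest in AT1G23390, at 8565 in mrg1 mrg2 and 4372 in Col-0, and lowest in CRK23, at 41.1 in mrg1 mrg2 and 17.5 in Col-0.

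**Figure D3:**
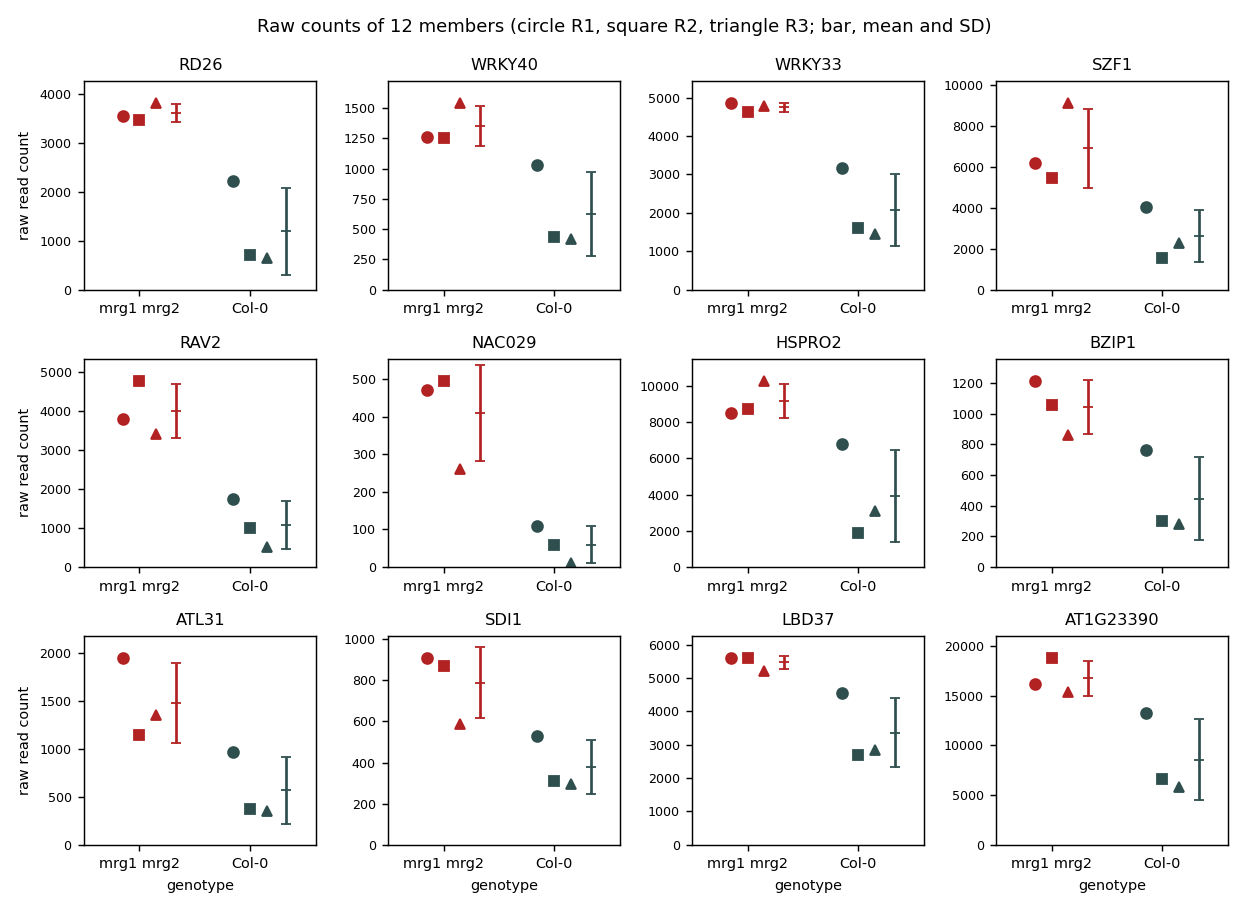
Raw read counts of 12 of the 45 genes, picked by hand to cover the groups in the text, in mrg1 mrg2 (red, left) and Col-0 (dark, right); circles are replicate 1, squares replicate 2 and triangles replicate 3, and the bar at the right of each group is the mean and SD of the 3 libraries. In every panel the Col-0 circle stands above the Col-0 square and triangle and below all mutant points, while the order of the mutant points differs from gene to gene.

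Of the genes left, some rank high by Col-0 ratio or abundance. AT4G23870, with no known product, had 790, 726 and 623 reads in mrg1 mrg2 and 472, 187 and 138 in Col-0. AT5G45310, a coiled-coil gene, had 249, 217 and 175 reads in mrg1 mrg2 and 138, 64 and 50 in Col-0. AT4G06536, a SPRY domain gene, had 182, 131 and 108 reads in mrg1 mrg2 and 85, 40 and 32 in Col-0. In all of these replicate 1 was the highest library in each genotype. AT3G19030, annotated as similar to a TFIID subunit, had 3204, 3201 and 3515 reads in mrg1 mrg2 and 2589, 1312 and 1573 in Col-0. DTX50 (AT5G52050), an exporter of abscisic acid, had 359, 456 and 834 reads in mrg1 mrg2 and 336, 191 and 188 in Col-0, so that its mutant replicate 3 alone stood far above Col-0 replicate 1.

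The other 12 genes are named to account for all 45. They are AT1G25400 (no known product), AGO3 (an Argonaute gene), RGXT3 (a rhamnogalacturonan xylosyltransferase gene), ZCF37, AT1G64065 (a LEA hydroxyproline-rich glycoprotein gene), AT1G68110 and AT4G40080 (ENTH/ANTH/VHS genes), AT1G69900 (actin cross-linking), AT2G32030 (an acyltransferase), CYP71B24 (a cytochrome P450), AT5G40720 (a DUF23 protein) and AT5G08350 (above). Over all 45 genes the fold of mrg1 mrg2 over Col-0 ran from 1.63 to 6.80, with a median of 2.30. AT2G32030 had 218, 184 and 216 reads in mrg1 mrg2 and 102, 59 and 53 in Col-0. CYP71B24 had 783, 666 and 734 reads in mrg1 mrg2 and 585, 289 and 304 in Col-0.

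By family, 13 of the 45 genes (28.9%) were NAC, WRKY, AP2 domain, zinc finger, MYB or bZIP regulators (AT5G40720, a DUF23 gene also annotated as a zinc finger gene, is not counted here), with folds of 2.17 to 6.80. Their joint share of the other 319 genes was not counted, so shares are given by family below. Among these 13, mutant replicate 3 was highest in 8, replicate 1 in 3 and replicate 2 in 2. Over all higher genes with the same mean count the shares were 32.1%, 29.1% and 38.7%. Zinc finger genes of any type, AT5G40720 included, were 5 of the 45 (11.1%) and 8 of the other 319 (2.51%). NAC genes were 3 (6.67%) and 7 (2.19%), WRKY genes 2 (4.44%) and 1 (0.313%), and AP2 domain genes 2 (4.44%) and 8 (2.51%). Ubiquitin ligase genes were 3 (6.67%) and 20 (6.27%), and the shares were also alike for calcium and calmodulin genes, 1 (2.22%) and 9 (2.82%). Cytochrome P450 genes were 1 (2.22%) and 12 (3.76%), transporters 1 (2.22%) and 13 (4.08%), and receptor-like kinases 1 (2.22%) and 8 (2.51%). NB-LRR genes, the family added later, were 4 (8.89%) and 9 (2.82%). These shares are counts of small numbers and were not tested.

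Within a pathway, some higher genes followed the Col-0 replicate 1 pattern and others did not. For comparison with the counts by list, the rule took 12.4% of all higher genes with a mean Col-0 count of 50 or more. The counts by list are small and were not tested. Of 34 rapid stress and touch genes, 12 were listed as higher, 0 as lower and 22 were not listed, and 4 of the 12 were among the 45 (SZF1, WRKY33, WRKY40 and AZF2). The 12 had a median Col-0 ratio of 1.31, against 1.01 over all higher genes, which include genes with a mean Col-0 count below 50. The rule chose the 4 by this ratio, so the gap is not read as a result. ZAT6, ERF1A and ERF5 went the other way, with Col-0 ratios of 0.734, 0.759 and 0.795. ZAT6, a zinc finger gene of the same response, had 695, 901 and 781 reads in mrg1 mrg2 and 353, 481 and 456 in Col-0, with replicate 1 the lowest library in both genotypes. ERF6 fell just short of the threshold at 1.46, with 1216, 904 and 1094 reads in mrg1 mrg2 and 766, 526 and 419 in Col-0.

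Of 24 salicylic acid and immunity genes, 4 were higher and 0 lower, and 3 of the 4 were among the 45 (CBP60G, WRKY33 and WRKY40, of which the WRKY genes are also on the rapid stress list). The fourth, WRKY70, was level in Col-0, with 5430, 8568 and 9898 reads in mrg1 mrg2 and 4651, 4582 and 4298 in Col-0. The list for abscisic acid and water deficit held 30 genes, of which 4 were higher and 0 lower; RD26 was among the 45, and ATHB-12 had a Col-0 ratio of 1.07, P5CSA of 1.34 and SAG113 of 1.42. Of 20 leaf senescence genes, 4 were higher and 0 lower. NAC029 was among the 45, while ORE1, another NAC activator of senescence, had 260, 365 and 260 reads in mrg1 mrg2 and 135, 160 and 77 in Col-0.

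Sulfur genes split as well. Of 15 sulfur and phosphate deficiency genes, 4 were higher and 0 lower, with a median Col-0 ratio of 0.829. SDI1 was raised in Col-0 replicate 1, at a ratio of 1.69, while LSU1, LSU3 and SDI2, induced by the same shortage, had ratios of 0.834, 0.660 and 0.825. LSU3 had 296, 545 and 396 reads in mrg1 mrg2 and 128, 194 and 176 in Col-0. Of 28 flowering time genes, 2 were higher and 1 lower: RAV2 was among the 45 and its relative TEM1 had a ratio of 1.203. Of 17 cold genes 4 were higher, and of 17 heat shock genes 2 were higher; 0 of these were among the 45, with Col-0 ratios of 0.876 to 1.34 for cold and 0.795 to 0.983 for heat. None of the genes on the lists for ethylene, the circadian clock, light and photosynthesis, or growth hormones was listed. On the jasmonate list, 1 of 22 genes was lower.

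Gene models of the 45 often lacked introns. A single exon was annotated in 21 of the 45 (46.7%), in 35.7% of the other 319 and in 20.5% of nuclear protein-coding genes of TAIR10.1. The median exon length was 1668 bases, close to the 1641 bases of the other 319. The 45 genes lay on all nuclear chromosomes, with 18 on chromosome 1, 3 on chromosome 2, 7 on chromosome 3, 6 on chromosome 4 and 11 on chromosome 5.

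For the promoters, 10 motifs were searched on both strands in the window of 250 bases before to 50 bases after each gene start. The W-box stood in 26 of the 45 promoters (57.8%), in 38.5% of the 304 promoters of other higher protein-coding genes with the same mean count and in 32.4% of all 27443 promoters. In the 250 bases before the start alone, 8 of the 45 genes had 2 or more W-boxes and 3 of them had 3 (SZF1, CYP71B24 and AT1G76600). Repeats were not counted in the other promoters, so these numbers have no comparison. With a ratio threshold of 2 in place of 1.5 the W-box share was 61.5%, and with a laxer threshold it was 43.8% over 105 protein-coding genes; both alternatives were chosen after seeing the data. The heat shock element (GAANNTTC) stood in 24.4% of the 45, 13.5% of the other higher genes and 11.6% of all promoters. The ABRE stood in 17.8%, 12.5% and 10.3%, and 3 of its 7 matches in the shorter window overlapped a G-box (CACGTG), which itself stood in 8.89%, 8.22% and 7.68%. A match is a description of letters and not of binding, and these shares were not tested.

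The remaining motifs were no more frequent in the 45 than in the other higher genes. The TATA box (TATAAA) stood in 53.3% of the 45, 62.2% of the other higher genes and 52.1% of all promoters, and the core of the evening element (AATATCT), a clock motif, in 8.89%, 14.8% and 11.5%. The sugar element (TATCCA) stood in 17.8%, 18.8% and 16.1%. The core of the rapid stress response element (CGCGTT) stood in 4.44%, 4.93% and 3.40%, the cold and drought element DRE (ACCGAC or GCCGAC) in 6.67%, 7.89% and 8.72%, and the GCC box (GCCGCC) of ethylene response factors in 2.22%, 2.63% and 2.57%.

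**Figure D4:**
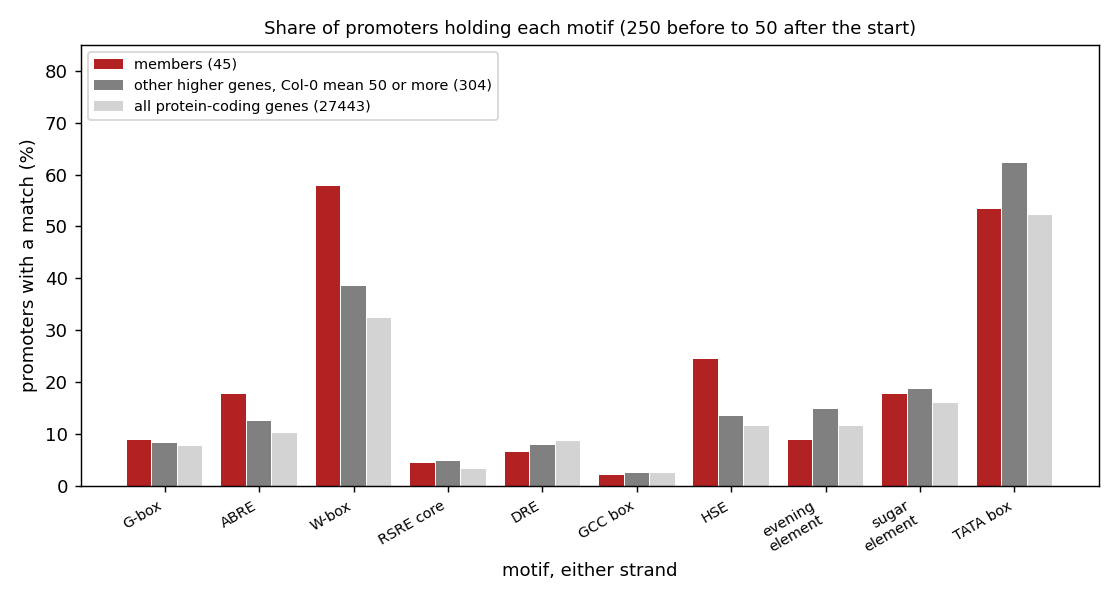
Share of promoters (%, vertical axis, from 0) with at least 1 match to each of 10 motifs (horizontal axis; RSRE is the rapid stress response element, HSE the heat shock element) for the 45 genes (red), the other higher genes with a mean Col-0 count of 50 or more (dark grey) and all protein-coding genes (light grey). The W-box shows the widest gap, 57.8% in the 45 genes against 38.5% and 32.4%, and for the G-box, DRE, GCC box and sugar element the 3 bars are close.

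The number of the 45 genes that passed a refit of the genotype difference moved with the model and with the libraries used. Refitted over the listed genes with edgeR's quasi-likelihood test, 18 of the 45 genes had a p no larger than the largest p in the authors' deposited table, 0.00161, beside 57.1% of all higher genes with a mean Col-0 count of 50 or more. With replicate number as a block, 27 of the 45 passed, beside 65.9%, and 14 genes passed both ways. RD26, WRKY33, SZF1, BZIP1 and ATL31 passed with the block and not without it, whereas AT1G66810, AT1G76600, CRK23 and AT5G41750 passed without it and not with it. Neither fit passed WRKY40, AZF2, HSPRO2, NAC59, MYB73, RAP2-13, LBD37 or either kelch F-box gene, nor RGXT3, AT3G02840, AT3G19030, AT5G08350 or DTX50. DESeq2 passed 40 of the 45 with every library kept, beside 75.5%, and 44 with the block, beside 71.7%. Without Col-0 replicate 1, all 45 genes passed in edgeR, beside 67% of all such higher genes, and without the whole of experiment 1, 43 passed, beside 51.1%. The rule chose genes for a high count in Col-0 replicate 1, so nothing is read from the rise without it. Without mutant replicate 2 or 3 the number was 7 or 10, and without Col-0 replicate 2 or 3 it was 7 or 8. Over all 531 higher genes the number also fell, from 373 with every library. It was 190 or 254 without mutant replicate 2 or 3, and 239 or 249 without Col-0 replicate 2 or 3. These counts describe the listed genes only and support nothing on their own.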

How the data were processed

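RNA-seq of 3 mrg1 mrg2 and 3 Col-0 libraries was used. Per the labels' protocols, RNA depleted of ribosomal RNA was made into stranded libraries and sequenced as 50 bp single-end reads; per the submitters' processing notes, DESeq2 and the TAIR10 build were used. For the aligner, the counting tool and its strand setting, the sources used here give nothing. As deposited by the authors, the data are 1 table of higher and 1 of lower genes, with raw counts per gene and library, and the authors' log2 fold change, p-value and adjusted p-value for each gene, per the file headers. The largest adjusted p was 0.0497. Only listed genes have counts, so the depth of each library is unknown and no test over all genes was made.

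Size factors (0.954 to 1.07) were recovered by least squares from the counts and the authors' deposited log2 fold changes over 350 genes, with a residual SD of 0.000658 against 0.00919 for equal factors. Dividing the raw counts by them gave normalized counts. All 552 listed genes were refitted together in R 4.3.3, by edgeR's quasi-likelihood test (version 4.0.16) and by DESeq2 (version 1.42.0). A gene passed at p no larger than 0.00161, the largest of the authors' deposited p-values. The same edgeR test set mutant replicate 1 against mutant replicates 2 and 3, with Benjamini-Hochberg adjustment over the 552 genes. The scripts were tested on simulated data. With 3 libraries per genotype the smallest two-sided p of an exact permutation test is 0.1, and such tests are not quoted.

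Deviations from the genotype means, over 466 genes, correlated across genes, which are not independent replicates: r was 0.36, 0.48 and 0.33 between mutant and Col-0 libraries of the same number and -0.38 to 0.02 in the other pairs. The deviations of a genotype cancel over its libraries, so positive values in same-numbered pairs push the other pairs negative. The other pairs are therefore not a separate check. On the basis of the same-numbered pairs, libraries of the same number were treated as 1 experiment. Gene models, names and promoters are from the TAIR10.1 reference (RefSeq), matched by locus code; the deposited tables hold no coordinates on which the build could be compared.

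The genes, the gene lists and the tests were chosen with earlier results of these data known. Genes were named if they were on a gene list, belonged to a transcription factor family, were among the 10 with the highest mean Col-0 count or Col-0 ratio or the 5 with the largest log2 fold change, were among the 5 in which mutant replicate 1 lay furthest below the others, or were the 3 nearest to the threshold on either side. AT1G21400, CYP71B24, 3 of the 4 disease resistance genes and most of the genes named to account for all 45 fall outside this rule.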

Additional observations from a re-analysis of the deposited data

How the results depend on the processing

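Counts of the 45 genes that passed a refit moved with the model. They were 18 with edgeR, 27 with edgeR and the replicate block, 17 with genes of mean count 10 or more, 32 with equal library sizes, 40 with DESeq2 and 44 with DESeq2 and the block. Over the 531 higher genes the numbers in the same order were 373, 383, 355 (of 515 fitted), 375, 440 and 393. All 45 passed at an adjusted p of 0.05 over the listed genes, as did all 531 higher genes. TMM factors over the listed genes gave 0, beside 27 of the 531 higher genes, and turned the sign of 12 of the 45. These factors shift the median log2 change of all listed genes by -1.03, nearly all of these genes being higher. Leaving out each library in turn gave 7 to 45, and 190 to 390 of the 531 higher genes. Leaving out replicate 1 of both genotypes, an alternative chosen after seeing the data, gave 43, and 262 of the 531. In no refit with the recovered factors did any of the 45 genes change sign. The block ended the call of 4 genes and added 13.

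The number of genes chosen by the rule was 45 by raw counts and 44 by normalized counts, 110 and 13 with a lower and a higher ratio threshold (the higher being 2), 53 and 37 with a mean count of 20 and 100, 66 to 76 without Col-0 replicate 3 or 2, and 3 and 5 with Col-0 replicate 2 and 3 as the raised library. The median log2 ratio of mutant replicate 1 was 0.03, and 0.33 over the 13 genes with a ratio of 2 or more, of which 8 lay above 0 (an alternative chosen after seeing the data); the cause was not tested. The count of 0 genes higher in mutant replicate 1 stayed at 0 with DESeq2, equal library sizes and a minimum mean count of 10. When only the 250 bases before the start were read, the W-box stood in 48.9% of the 45 promoters, 34.2% of the 304 of other higher genes and 28.4% of all.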
